A study of Mus musculus with 6 samples.

Results

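A set of 9 genes that mark the resting, naive state of T cells is described here: the transcription factors Tcf7, Lef1, Foxo1, Klf2 and Bach2, the chromatin organiser Satb1, the homing receptors Ccr7 and S1pr1, and the survival receptor Il7r. They were taken by name from a list and make up 9 of the 19977 genes in the deposited table. The mice were wild-type C57BL/6, either young (6 to 8 weeks, coded as 1 month in the sample titles) or old (11 months), and CD4+ T cells of each age gave 3 libraries. Flow cytometry was used to isolate them from lymph nodes and spleen, and they were then kept for 6 hours with antibodies to CD3 and CD28, which stimulate the T-cell receptor complex and its costimulatory receptor. All 6 libraries are thus of stimulated cells and no unstimulated library was used here. Whether the 3 libraries of a group are 3 animals is not stated in the labels, so the tests below weigh differences against a spread that may be technical.

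Naive T cells circulate between blood and lymph nodes and divide rarely. Foxo1, a forkhead factor that growth signals push out of the nucleus, keeps Klf2, Il7r and Ccr7 transcribed in such cells. Klf2, a Krüppel-like factor, in turn maintains S1pr1. Ccr7 is the chemokine receptor that brings T cells into lymph nodes, and S1pr1, a receptor for sphingosine 1-phosphate, lets them leave again. Il7r is the alpha chain of the receptor for interleukin 7, on which the survival of resting T cells depends. Tcf7 and Lef1 are related high-mobility-group factors of T-cell development and naive identity, Bach2 is a repressor that holds back effector genes, and Satb1 organises chromatin in the T-cell lineage. Stimulation through the receptor is known to lower many of these transcripts within hours, at different rates.

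All 9 genes passed the expression filter (a mean FPKM of at least 1, where FPKM scales fragments to transcript length and library size), as did 10509 genes in all. Expected counts per library totalled between 16932551 and 18708205. Levels are given below as CPM, expected counts scaled to a common TMM-adjusted library size. In bulk RNA, fewer cells of a type and less RNA per cell cannot be told apart. The 7 measured markers of CD4+ T cells (Cd4, Cd28 and the CD3 chains among them) summed to between 2654 and 3459 CPM in every library, against 11.3 to 27.5 CPM for the CD8 chains and 32.3 to 84.2 CPM for 10 B-cell markers. Young replicate 1 stood apart from the other young libraries, as its log2 levels correlated across genes at 0.924 and 0.911 with theirs, against 0.977 between those 2 (a description, since genes are no replicates). Results are therefore given with and without that library.

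The sequences before 3 of these genes are shown because their transcripts differed widely between young libraries (Il7r and Klf2) or come from different starts that differed unequally (Lef1). Each is the 250 bases before an annotated start in the GRCm38.p6 build, from RefSeq, 5′ to 3′ on the gene's strand. For Lef1 these starts are 131110297 and 131112791. The first exons of the Lef1 transcripts described below start at 131110471 and 131112797 in another annotation, GENCODE M21. Capitals mark the letters of a KLF motif (CCACCC, or GGGTGG on the other strand), which the Il7r window lacks.
Il7r (minus strand, chr15:9529877-9530126): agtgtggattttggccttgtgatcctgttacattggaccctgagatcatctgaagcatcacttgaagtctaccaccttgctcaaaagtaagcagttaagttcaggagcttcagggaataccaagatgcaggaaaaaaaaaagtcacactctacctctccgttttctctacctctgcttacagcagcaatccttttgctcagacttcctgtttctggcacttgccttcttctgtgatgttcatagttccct
Klf2 (plus strand, chr8:72318812-72319061): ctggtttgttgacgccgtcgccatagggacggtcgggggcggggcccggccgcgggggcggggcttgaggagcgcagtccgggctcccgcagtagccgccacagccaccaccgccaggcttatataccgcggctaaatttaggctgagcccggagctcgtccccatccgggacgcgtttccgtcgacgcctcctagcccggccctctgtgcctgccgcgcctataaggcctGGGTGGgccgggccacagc
Lef1, upstream start (plus strand, chr3:131110047-131110296): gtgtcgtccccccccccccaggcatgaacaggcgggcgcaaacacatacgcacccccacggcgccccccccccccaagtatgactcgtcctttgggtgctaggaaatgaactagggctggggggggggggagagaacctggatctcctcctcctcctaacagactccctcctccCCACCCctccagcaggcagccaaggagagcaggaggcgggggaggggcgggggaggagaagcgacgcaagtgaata
Lef1, downstream start (plus strand, chr3:131112541-131112790): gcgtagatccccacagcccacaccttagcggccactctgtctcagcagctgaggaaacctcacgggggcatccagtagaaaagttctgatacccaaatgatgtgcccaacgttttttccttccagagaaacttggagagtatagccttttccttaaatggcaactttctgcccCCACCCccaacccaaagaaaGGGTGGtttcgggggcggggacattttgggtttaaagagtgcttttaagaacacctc

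Motifs of the factors in the set were searched on both strands in the 15 windows of this length that the table holds for 7 of the 9 genes (Ccr7 and S1pr1 had none), some of which overlap. CCACCC was found in 8 of the 15 windows, of Klf2, Lef1, Satb1 and Tcf7, and in 28.1% of all 32851 windows. The TCF/LEF letters CTTTGA stood in 2 of the 15, of Bach2 and of a start within Lef1, and in 13.8% of all windows. Neither the FOXO letters TGTTTAC nor the AP-1 and BACH letters TGACTCA were found in any of the 15, and they stood in 3.17% and 4.46% of all windows. Within a window no match overlapped another, but overlapping windows of Lef1 hold the same copy of CCACCC, which is counted in each. A match is a description of letters, and its absence from a window says nothing about binding elsewhere.

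For most of these genes young replicate 1 was far from the other libraries. In 7 of the 9 genes young replicate 1 was the highest of all 6 libraries, as it was for 33.2% of all genes tested. The exceptions were Satb1, which was at the level of the other young libraries, and Ccr7, which was lower in young replicate 1 than in both. The distance of young replicate 1 from the mean of young replicates 2 and 3 was a log2 difference of 4.34 for Il7r, the 5th largest of the 10509 genes. It was 3.21 for S1pr1 (the 21st largest), 2.15 for Klf2, 1.75 for Lef1, 1.20 for Tcf7, 0.67 for Foxo1 and 0.26 for Bach2. The differences were -0.03 for Satb1 and -0.58 for Ccr7, and the median over all genes tested was 0.06.

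**Figure D1:**
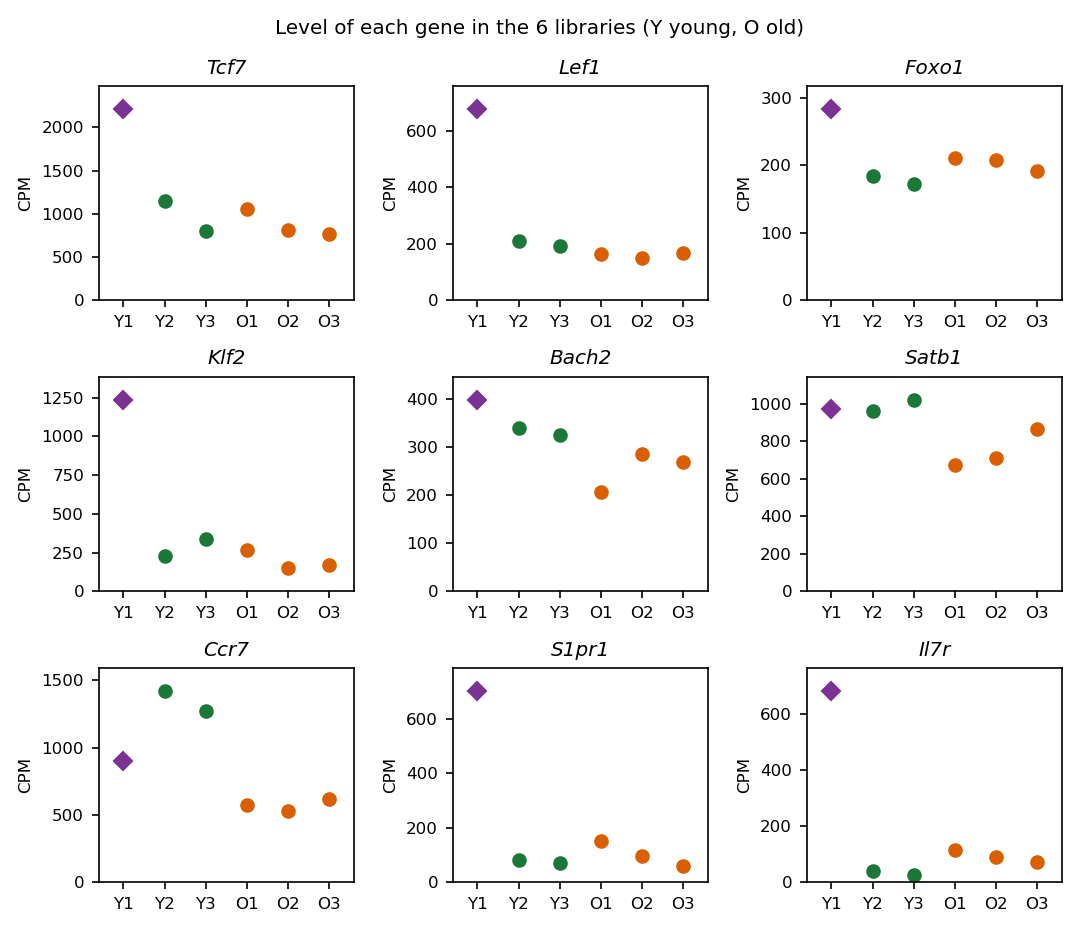
Level of each of the 9 genes in CPM (linear axes from 0) in each library, where Y is young, O is old, the diamond is young replicate 1 and circles are the other libraries. Young replicate 1 is the highest library in every panel except those of Satb1 and Ccr7, and for Il7r it stands at 684.0 CPM against 27.6 to 114.1 CPM in the others.

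**Figure D2:**
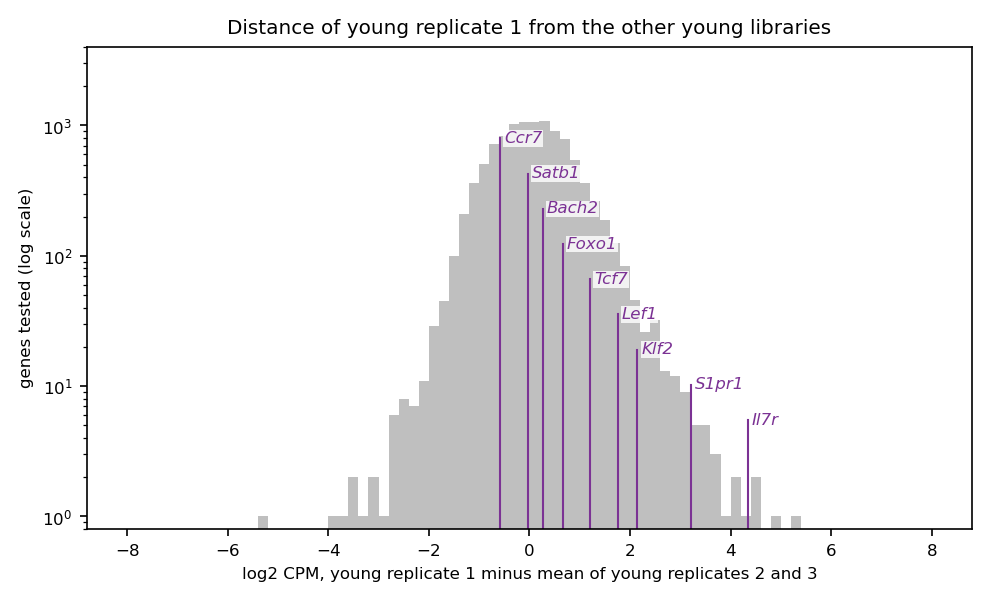
Histogram over the 10509 genes tested of the log2 CPM in young replicate 1 minus the mean of young replicates 2 and 3 (log scale of gene number), with vertical lines at the 9 genes. Il7r at 4.34 and S1pr1 at 3.21 lie in the far right of the distribution, Satb1 and Ccr7 at or below 0.

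Early genes of receptor stimulation were mostly low in young replicate 1. Of 21 tested genes of that list, 19 were lower there than in both other young libraries, against 4331 of 10509 genes overall. Cd83 and Fosb were higher. Egr2, an early growth response factor, stood at 104 CPM in young replicate 1 and at 229 and 204 CPM in the others. The summed B-cell markers were also highest in young replicate 1, at 84.2 CPM against 37.0 and 38.3 CPM, and B cells express several of the 9 genes. The part of either in the levels of the 9 genes was not tested.

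Old were compared with young libraries to find which naive-state transcripts differ with age after 6 hours of stimulation. With all 6 libraries, edgeR's quasi-likelihood test called 0 of the 9 genes at a Benjamini-Hochberg adjusted p under 0.05, where it called 0.875% of all genes tested (92 of 10509, 0.742% higher and 0.133% lower in old). At an unadjusted p under 0.05 there were 4 of the 9 (Lef1, Ccr7, Klf2 and Bach2), against 10.6% of all genes. DESeq2 called Ccr7 and gave Il7r no adjusted p, and limma called 0. All 9 log2 differences were negative in edgeR, with a median of -1.06, beside -0.03 over all genes tested. Without young replicate 1, which was left out with its values known, Ccr7 was called lower and Il7r higher in old libraries, 2 of 9 genes where 8.92% of all genes were called (930 of 10427, 5.97% higher and 2.94% lower). At an unadjusted p under 0.05 there were 5 of the 9 (Lef1, Ccr7, Il7r, Bach2 and Satb1), against 28.3% of all genes. The median of the 9 differences was then -0.32, beside 0.01 over all genes. The sign turned from negative to positive for Il7r, S1pr1 and Foxo1.

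**Figure D3:**
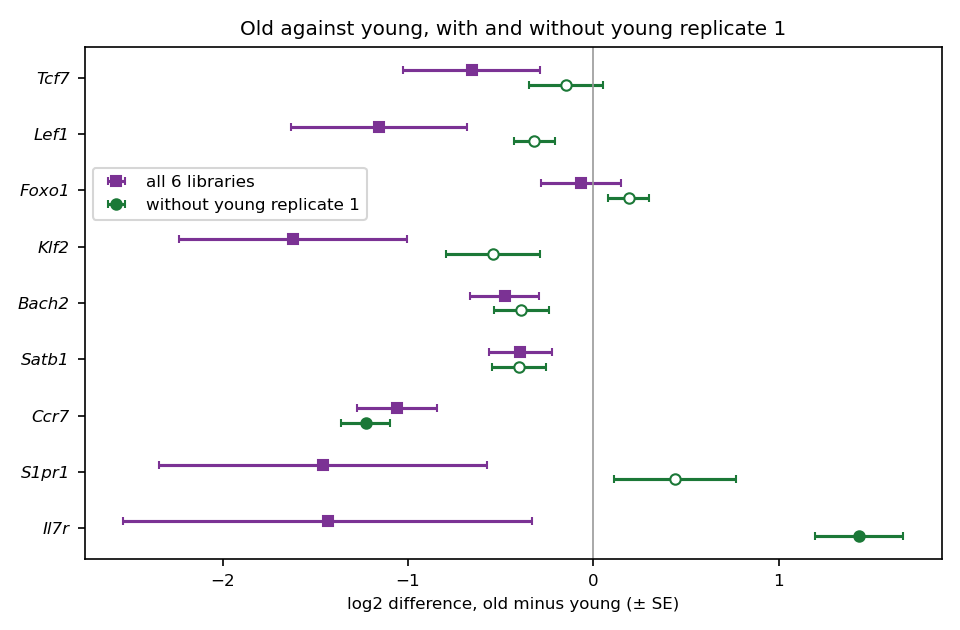
Log2 difference of old minus young libraries for each gene with its standard error, with all 6 libraries (squares) and without young replicate 1 (circles, filled where the adjusted p is under 0.05). Il7r, S1pr1 and Foxo1 change sign between the fits, whereas Ccr7 (-1.06 and -1.23), Bach2 and Satb1 have similar differences in both.

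Ccr7 (Entrez gene 12775, minus strand, chr11:99144199-99155077 in GRCm38) was called lower in old libraries once young replicate 1 was left out, under every setting run that kept young replicates 2 and 3. Young libraries stood at 898.9, 1419 and 1271 CPM and old libraries at 576.1, 526.2 and 620.7 CPM. The groups did not overlap, and the lowest young library was replicate 1. The mean was 1196 ± 268 CPM in young and 574 ± 47.3 CPM in old libraries (SD, n = 3 each), or 2.08-fold higher in young. The log2 difference was -1.06 ± 0.22 (SE), with an adjusted p of 0.0895 in edgeR. Without young replicate 1 it was -1.23 ± 0.13, with an adjusted p of 0.00338, and the fold between the means was 2.34. The call held under each of the 7 alternative settings and whichever old library was also left out (adjusted p of at most 0.0272). Fits that also left out young replicate 2 or 3 kept 1 young library and so no spread among young libraries. Their log2 differences were -1.15 and -1.31.

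S1pr1 (Entrez gene 13609, minus strand, chr3:115710433-115715055) differed more among libraries of a group than between groups. It stood at 702.3, 81.8 and 70.5 CPM in young and at 152.8, 97.6 and 60.1 CPM in old libraries. Old replicate 3 was below every young library, and old replicates 1 and 2 lay between young replicate 1 and the other 2 young libraries. The log2 difference was -1.46 ± 0.88 with all libraries and 0.44 ± 0.33 without young replicate 1 (SE), with adjusted p of 0.666 and 0.415 in edgeR. The first was -0.71 in limma with either pseudocount, and the second was 0.05 when old replicate 1 was also left out. Within the old group the highest library exceeded the lowest 2.54-fold, the widest spread among old libraries of the 9 genes.

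The balance of the entry receptor over the exit receptor can be read within a library from levels per length. The ratio of Ccr7 to S1pr1 FPKM was 1.98 in young replicate 1, 26.8 and 27.8 in young replicates 2 and 3, and 5.83, 8.32 and 16.0 in old replicates 1 to 3. All old libraries therefore lay below young replicates 2 and 3 and above young replicate 1. A ratio shows unequal change of the 2 genes and not which of them changed.

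Il7r (Entrez gene 16197, minus strand, chr15:9506159-9529941) had the largest fold range over the 6 libraries of the 9 genes. It stood at 684.0, 41.1 and 27.6 CPM in young and at 114.1, 91.8 and 72.6 CPM in old libraries. Young replicate 1 was far above, and both other young libraries below, every old library. Young replicate 1 exceeded the mean of the other 2 young libraries 19.9-fold. With all libraries the log2 difference was -1.43 ± 1.10 (SE, adjusted p = 0.763 in edgeR) and also -1.43 in DESeq2. It was -0.04 and -0.0026 in limma, which averages log values, with pseudocounts of 1 and 0.1. In edgeR with a replicate block it was 0.14, so its size and sign depended on the model fitted. Without young replicate 1, Il7r rose by 1.43 ± 0.24 in old libraries (adjusted p = 0.0132), from a mean of 34.3 to 92.8 ± 20.8 CPM (SD, n = 3 old), 2.71-fold. That call was lost without old replicate 2 (1.44, adjusted p = 0.0561), while the 7 alternative settings gave adjusted p of at most 0.0167 in edgeR, DESeq2 and limma. Also leaving out young replicate 2 or 3, which kept 1 young library, gave differences of 1.75 and 1.17.

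Klf2 (Entrez gene 16598, plus strand, chr8:72319062-72321654), whose promoter is printed above, stood at 1235, 227.9 and 340.4 CPM in young and at 264.2, 153.7 and 169.1 CPM in old libraries. The groups overlapped, since old replicate 1 was above young replicate 2. The log2 difference was -1.62 ± 0.61 with all libraries (SE, adjusted p = 0.390 in edgeR) and -0.54 ± 0.25 without young replicate 1 (adjusted p = 0.204). Leaving out a further library moved the latter value between -0.23 without young replicate 3, which kept 1 young library, and -0.81 without old replicate 1 (adjusted p = 0.0397). Klf2 was not called when another old library was left out instead.

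Foxo1 (Entrez gene 56458, plus strand, chr3:52268337-52350109) had the smallest difference of the 9 with all libraries. It stood at 283.1, 184.3 and 172.6 CPM in young and at 211.3, 208.1 and 192.1 CPM in old libraries. All old libraries lay above young replicates 2 and 3 and below young replicate 1. The log2 difference was -0.07 ± 0.22 with all libraries and 0.19 ± 0.11 without young replicate 1 (SE), with adjusted p of 0.965 and 0.287 in edgeR.

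Tcf7 (Entrez gene 21414, minus strand, chr11:52246527-52283383) had the highest mean FPKM of the 9 genes in old libraries. It stood at 2214, 1144 and 807.6 CPM in young and at 1062, 814.2 and 766.6 CPM in old libraries. The groups overlapped with and without young replicate 1. The log2 difference was -0.66 ± 0.37 with all libraries and -0.15 ± 0.20 without young replicate 1 (SE), with adjusted p of 0.631 and 0.663 in edgeR. Its span overlaps Skp1 in the gene table, and shared transcript sequence was not checked.

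Lef1 (Entrez gene 16842, plus strand, chr3:131110297-131224357) stood at 677.9, 208.9 and 193.4 CPM in young and at 164.8, 150.9 and 168.7 CPM in old libraries. Every old library was below every young library, and old libraries lay close together, at 161 ± 9.39 CPM (SD, n = 3). The log2 difference was -1.16 ± 0.48 with all libraries (SE, adjusted p = 0.441 in edgeR) and -0.32 ± 0.11 without young replicate 1 (adjusted p = 0.107, and called by DESeq2 at 0.0473).

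Bach2 and Satb1 were little affected by young replicate 1. Bach2 (Entrez gene 12014, plus strand, chr4:32238413-32586109) stood at 397.0, 338.5 and 323.9 CPM in young and at 206.7, 284.5 and 268.9 CPM in old libraries. Satb1 (Entrez gene 20230, minus strand, chr17:51736187-51833290) stood at 972.1, 962.1 and 1019 CPM in young and at 674.5, 709.4 and 864.8 CPM in old libraries. For both genes every old library was below every young library, and the young libraries were the closer together for Satb1, at 984 ± 30.3 against 750 ± 101 CPM (SD, n = 3 each). For Bach2 the log2 difference was -0.48 ± 0.18 with all libraries and -0.39 ± 0.15 without young replicate 1 (SE), with adjusted p of 0.396 and 0.138 in edgeR. The Satb1 difference was -0.39 ± 0.17 and -0.40 ± 0.15, with adjusted p of 0.490 and 0.119 (0.0346 in DESeq2 without young replicate 1).

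Groups that do not overlap were thus found for 4 of the 9 genes with all libraries (Lef1, Ccr7, Bach2 and Satb1), all lower in old, where 6.54% of all genes had non-overlapping groups in that direction, 9.9% in the other and 16.4% in either. When young replicate 1 was not counted, it was 6 of 9, with Il7r and Foxo1 higher in old, where 47.7% of all genes had non-overlapping groups (24.5% higher and 23.3% lower).

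On the FPKM scale, which allows levels of different genes to be compared, the order of the genes differed between libraries. In old libraries Tcf7 (333 ± 64.3 FPKM, SD, n = 3) and Ccr7 (290 ± 19.3) came first, with overlapping ranges, followed by Satb1 (188 ± 21.6), Klf2 (108 ± 33.9) and Lef1 (65.2 ± 3.63). Foxo1, S1pr1, Il7r and Bach2 had old means between 28.4 and 36.3 FPKM, and neighbours in that order overlapped. In young replicates 2 and 3 Ccr7 was first, at 715 and 617 FPKM, and Il7r last, at 12.6 and 8.17 FPKM. In young replicate 1 Tcf7 (854 FPKM) and Klf2 (696 FPKM) were first, and Bach2 (45.8 FPKM) was last.

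The table gives values per transcript, and 3 genes of the set (Klf2, S1pr1 and Foxo1) had a single transcript in it. Lef1 had 6 transcripts, of which NM_001276403.1 and NM_010703.4 held most of the signal. In the GENCODE M21 annotation of GRCm38 they share 11 of their 12 exons. NM_010703.4 opens with a first exon of 1208 bases of which 207 are coding, and its reading frame has 397 codons. NM_001276403.1 opens 2326 bases further on with a first exon of 24 bases, 9 of them coding, and its reading frame has 331 codons. The N-terminal end of full-length Lef1 is known to bind beta-catenin, the coactivator of Wnt signalling.

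The longer Lef1 form, NM_010703.4, stood at 63.5 FPKM in young replicate 1 and at 3.47 and 4.90 FPKM in young replicates 2 and 3. In old libraries it stood at 5.52, 6.71 and 0.15 FPKM. The shorter form, NM_001276403.1, stood at 182, 71.8 and 63.5 FPKM in young and at 56.7, 51.1 and 60.5 FPKM in old libraries, so every old library was below every young library. The longer form made up 24.7% of Lef1 FPKM in young replicate 1 and at most 11.0% in each of the others. Between young replicate 1 and the mean of the other young libraries the longer form differed 15.2-fold and the shorter form 2.69-fold. RSEM divides reads of shared exons among transcripts by a model, so these shares are estimates, and they were not tested. Expected counts of NM_010703.4 were 3962, 239 and 326 in young and 370, 454 and 10.4 in old libraries. Those of XM_006501068.3 were 235, 378 and 0 in young and 163, 0 and 305 in old libraries. XM_006501069.2 had 184, 0 and 288 in young and 0, 47.7 and 0 in old libraries. How reads were divided among them was not tested, so the 15.2-fold is of NM_010703.4 alone.

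**Figure D4:**
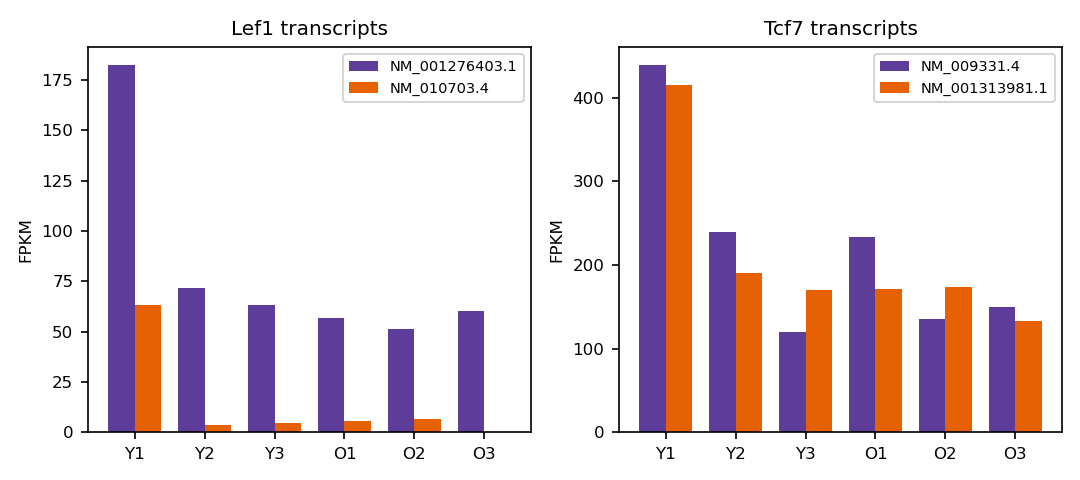
FPKM of the main Lef1 transcripts (left) and of both Tcf7 transcripts (right) in each library, as bars from 0, where Y is young and O is old. The longer Lef1 form (NM_010703.4) reaches 63.5 FPKM in young replicate 1 and at most 6.71 FPKM elsewhere, while both Tcf7 transcripts are highest in that library.

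The 2 Tcf7 transcripts start at different first exons but have the same 9 coding exons. The share of NM_009331.4 was 51.4%, 55.7% and 41.4% in young and 57.7%, 43.8% and 53.1% in old libraries, so the groups overlapped. In Ccr7, NM_007719.2 held between 95.6% and 98.8% of the FPKM in every library, and in Il7r NM_008372.4 held at least 91.2%. For Bach2, the share of NM_001109661.1 ranged from 30.4% to 70.6% with no order between groups, and Satb1 was split over 11 transcripts with counts, of which XM_017317364.1 held 50.2% to 69.9%.

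Genes around the 9 were taken from lists of relatives, partners and targets. None of 19 tested genes of lymph node entry and egress was called with all libraries (5 at an unadjusted p under 0.05, 4 in DESeq2). With young replicate 1 left out, 5 were called higher and 1 lower, with a list median of 0.37. The higher calls were Cxcr5, a receptor for B-cell follicles (log2 2.24 ± 0.32 SE), the integrin chain Itga4 (1.54 ± 0.30), the oxysterol receptor Gpr183 (0.70 ± 0.16), Dock2 (0.68 ± 0.14), which activates Rac in migrating cells, and Sgpl1 (0.53 ± 0.14), which degrades sphingosine 1-phosphate.

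Of 20 tested relatives, regulators and further targets of Foxo1, 0 were called with all libraries (4 at an unadjusted p under 0.05, 1 in DESeq2). In 18 of them young replicate 1 was above both other young libraries, Akt1 and Akt2 being the exceptions, against 4807 of 10509 genes overall. Pik3ip1, an inhibitor of phosphoinositide 3-kinase, stood at 215, 25.9 and 27.1 CPM in young and 22.4, 13.7 and 15.2 CPM in old libraries, with no call in either fit. In the comparison of 2 against 3 libraries, the follicular helper factor Bcl6 was called higher (log2 0.79 ± 0.15 SE, adjusted p = 0.0213 in edgeR), and the list median moved from -0.21 to 0.22.

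Among Krüppel-like factors other than Klf2, Klf9 was called higher with all libraries (log2 1.67 ± 0.21 SE, adjusted p = 0.0262 in edgeR). It stood at 7.52, 7.95 and 6.87 CPM in young and 21.7, 29.4 and 19.9 CPM in old libraries. Klf9 was the only 1 called of the 12 tested genes of this list, which also counts Wwp1, Smurf1 and Mef2d, genes outside the family. After young replicate 1 was omitted, Klf6 was also called higher (1.03 ± 0.14, adjusted p = 0.0079). Klf3 and Klf13 were high in young replicate 1, at 316 and 630 CPM against at most 88.7 and 208 CPM in the other libraries, and had differences of 0.07 ± 0.14 and 0.05 ± 0.10 without it.

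Among 20 tested relatives, cofactors and targets of Tcf7 and Lef1 (19 without young replicate 1), Myb was called lower in both fits. This factor of progenitors and memory cells stood at 209, 198 and 223 CPM in young and 74.1, 110 and 94.5 CPM in old libraries (log2 -1.18 ± 0.18 SE, adjusted p = 0.0407 in edgeR). Id3, an inhibitor of E proteins, was called lower without young replicate 1 (-0.96 ± 0.14, adjusted p = 0.00892) and Runx3 higher (0.60 ± 0.15, adjusted p = 0.0482).

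Partners and antagonists of Bach2 had a median difference of 0.64 in the full comparison (17 tested genes) and of 0.61 without young replicate 1. Batf, an AP-1 factor that binds letters shared with Bach2, was called in both, at 36.9, 48.0 and 46.0 CPM in young and 123, 110 and 146 CPM in old libraries (log2 1.53 ± 0.18 SE, adjusted p = 0.0250 in edgeR). When young replicate 1 was not counted, Nfe2l1, Junb, Fosl2, Prdm1 and Hmox1 were called higher as well. Prdm1, the effector factor Blimp-1 and a known target of Bach2 repression, stood at 17.7, 7.04 and 5.43 CPM in young and 35.0, 32.1 and 26.8 CPM in old libraries (2.32 ± 0.20 without young replicate 1, adjusted p = 0.00195).

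Of 14 genes of interleukin 7 receptor signalling, 0 were called with all libraries (5 at an unadjusted p under 0.05, 2 in DESeq2). With young replicate 1 left out, the feedback inhibitors Cish (log2 0.80 ± 0.20 SE) and Socs3 (adjusted p = 0.00192 in edgeR) were called higher. Socs3 stood at 159, 72.3 and 67.6 CPM in young and at 214, 196 and 184 CPM in old libraries. Of 11 tested chromatin organisers around Satb1, 0 were called with all libraries (1 before adjustment, and 0 by DESeq2). Bcl11b (log2 0.44 ± 0.11 SE) and Ikzf3 (1.10 ± 0.21) were called higher without young replicate 1.

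Further genes of quiescence and the naive state were called in both directions, once young replicate 1 was left out. Of 27 tested, 0 were called with all libraries (9 before adjustment, and 7 by DESeq2). In 21 of the 27, young replicate 1 was above both other young libraries, against 4807 of 10509 genes overall. Without it, 4 were called lower, namely Actn1 (-0.76 ± 0.14), Nsg2 (-0.71 ± 0.17), St8sia1 (-0.70 ± 0.18) and Txk (-0.70 ± 0.14; log2, SE). In the same fit 6 were called higher, among them the interleukin 6 receptor Il6ra (0.90 ± 0.17) and Id2, a factor of effector cells (1.26 ± 0.20). The list median was -0.13 with all libraries and -0.02 without young replicate 1.

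Lists that the naive state is set against had medians above 0 in old against young libraries. Without young replicate 1, so did the lists around the 9 genes (0.14 to 0.61), except further quiescence and naive-state genes (-0.02). For markers of antigen-experienced cells the median over 22 genes was 1.04 in the full comparison, 4 called higher (Cd44, Cxcr6, Nkg7 and Maf). Of 23 genes tested without young replicate 1, 16 were called higher, but 3 of these (Ccr6, Itgae and Rora) passed the expression filter only through the old libraries. Young replicate 1 was above both other young libraries in 17 of the 22 and below both in 3. Over all 10509 genes it was above both in 4807 and below both in 4331. Regulatory and follicular cell markers had medians of 1.59 and 1.83 over 12 genes, with 4 (Ikzf2, Ctla4, Tigit and Il21) and 11 called higher. Early genes of receptor stimulation had medians of 0.48 and 0.38 over 21 genes, with 0 called with all libraries (7 before adjustment, and 5 by DESeq2) and 5 called higher without young replicate 1 (Egr1, Egr2, Tnfrsf4, Il2ra and Cd83). The part of the share of such cells in the levels of Ccr7 and Il7r was not tested.

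**Figure D5:**
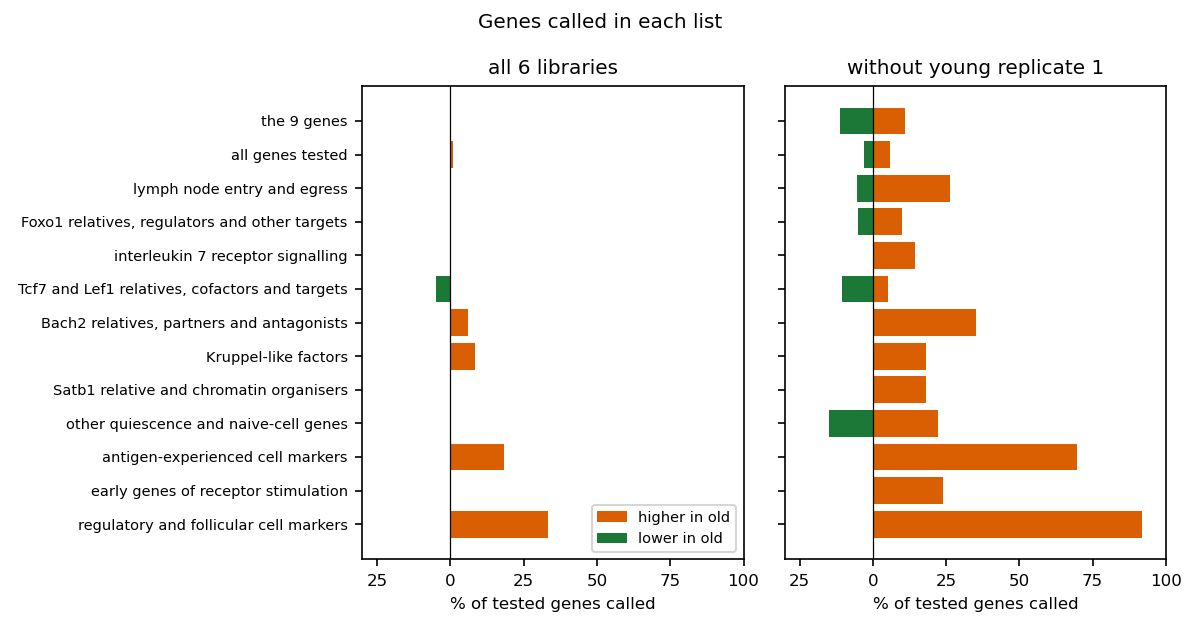
Share of the tested genes of each list that edgeR called higher (right of 0) or lower (left of 0) in old libraries, with all 6 libraries (left) and without young replicate 1 (right). The 9 genes have no call on the left and 1 in each direction on the right, while regulatory and follicular cell markers have 11 of 12 called higher on the right. The right bar of the antigen-experienced markers includes 3 genes that passed the filter only through old libraries.

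Markers of other cells differed between libraries at low levels. The 10 B-cell markers summed to 37.0 to 84.2 CPM in young and 32.3 to 63.1 CPM in old libraries, and 8 myeloid markers to 29.9 to 62.0 and 24.9 to 31.1 CPM. Neutrophil markers (7 genes) summed to 31.4 to 67.7 CPM in young and 4.32 to 25.3 CPM in old libraries, and the CD8 chains to 16.6 to 27.5 and 11.3 to 14.6 CPM. The 5 natural killer cell markers, led by Eomes, which T cells also express, summed to 48.0 to 99.8 and 30.5 to 37.9 CPM. Dendritic cell markers (6 genes) summed to 16.2 to 23.4 and 26.3 to 30.9 CPM, and plasma cell markers (3 genes) to 2.84 to 4.79 and 5.78 to 16.3 CPM. The neutrophil, CD8, natural killer, dendritic and plasma cell sums did not overlap between groups. Erythroid and thymocyte markers (4 genes each) stayed at or below 4.57 CPM. The 7 stromal and endothelial markers were led by Pecam1, which is also in the naive list, with a sum of 240 CPM in young replicate 1 and at most 100 CPM elsewhere, and Ccl21a was at 0 in every library. The part of these cells in the levels of the 9 genes was not tested.

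The genes whose log2 CPM followed a member most closely over the 6 libraries were named by Pearson's r as a description. They were Apbb1ip for Il7r (r = 0.999), Tgfbr2 for Foxo1 (0.999), Appl2 for S1pr1 (0.999), Klc4 for Klf2 (0.999), Tob1 for Lef1 (0.997, followed by Gramd3 at 0.994), Sh3bp1 for Tcf7 (0.996), Prpsap1 for Ccr7 (0.996), Myo10 for Bach2 (0.995) and Ube2e3 for Satb1 (0.986). Over all 10509 genes, the median of the best such value was 0.995 and the 95th percentile was 0.99915. Values near the median are thus usual with 6 libraries, of which young replicate 1 stood apart. Those of Il7r (0.99943), S1pr1 (0.99932) and Foxo1 (0.99916) were above the 95th percentile.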

How the data were processed

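The deposited table lists 66712 RefSeq transcripts. For each transcript and sample it holds the expected count and the FPKM the authors computed, per the file headers, with samples kept separate. The submitters' processing notes name Bowtie, RSEM and the build GRCm38 (mm10); read filters and strandedness were not stated. Both measures were summed per Entrez gene. Of 19977 gene numbers, 19830 matched a RefSeq symbol, and the other 147 held 0.121% to 0.211% of a library's counts. Sums were rounded and tested with edgeR 4.0.16 in R 4.3.3, by TMM and the quasi-likelihood test, over genes with a mean FPKM of 1 or more, with Benjamini-Hochberg adjustment over all of them. Standard errors are the absolute log2 difference over the square root of F. The code was tested on simulated data. Alternatives were RLE factors, DESeq2 1.42.0, dropping the filter, a filter at 5 FPKM, limma 3.58.1 on log2(FPKM + 1) or log2(FPKM + 0.1), a replicate block, and omitting each library. No libraries were duplicates, as chi-square over its degrees of freedom was at least 23.03 between any pair. The 9 genes, the 11 gene lists, the marker lists and the omission of young replicate 1 were chosen with earlier results of these data known. Genes named were the 9, up to 4 per list with the smallest p in either fit, up to 3 genes most correlated with each of the 9, and every gene of a count of 5 or fewer; Hmox1 was named after its values were seen. Some genes of the lists are counted but not reported here by name. Figures were drawn with matplotlib 3.10.9.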

Additional observations from a re-analysis of the deposited data

How the results depend on the processing

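The number of genes called with all libraries (92) was 501 with DESeq2, 203 with no filter, 55 with a mean FPKM of at least 5, and 0 to 930 when 1 library was left out, with 930 without young replicate 1, 0 without young replicate 2 (1315 at an unadjusted p under 0.05), 7 without young replicate 3, and 6, 1 and 9 without old replicates 1, 2 and 3. Of the 9 genes, 1 was called with DESeq2, where the edgeR count was 0, and 0 to 2 when 1 library was left out. Without young replicate 1, the 930 calls became 1799 with DESeq2 and 36 to 1007 when a further library was left out (36 without young replicate 3 and 205 without old replicate 2, the former leaving 1 young library that is assumed to vary like the others). The count of 2 of the 9 genes became 4 with DESeq2 (Lef1, Ccr7, Il7r and Satb1) and 1 to 3 when an old library was also left out. The cause of these changes was not tested.

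Signs turned with young replicate 1: leaving out each library in turn gave a log2 difference of -1.98 to 1.43 for Il7r, -1.93 to 0.44 for S1pr1 and -0.21 to 0.19 for Foxo1. Without young replicate 1, Tcf7 ranged from -0.39 to 0.12 when a further library was left out (0.12 without young replicate 2), Klf2 from -0.81 to -0.23, and S1pr1 from 0.05 (without old replicate 1) to 0.70. Both ends for Tcf7 and the -0.23 for Klf2 came from fits that kept 1 young library. In limma with all libraries Il7r was at -0.04 and -0.0026 and S1pr1 at -0.71. Apart from Il7r, S1pr1 and Foxo1 with all libraries and Tcf7 without young replicate 1, the 9 genes kept their sign in every setting run, which says nothing of their size.

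The replicate numbers pair nothing stated in the labels. Deviations of same-numbered libraries from their group means correlated at 0.22, -0.03 and 0.18 across genes, and young replicate 2 correlated best with old replicate 3 (0.34). With the replicate block, 119 genes and 0 of the 9 were called with all libraries and Il7r turned to 0.14 (adjusted p = 0.993 in edgeR). Without young replicate 1 the block gave 1311 genes and 3 of the 9, Klf2 among them (-0.79, adjusted p = 0.0151), with S1pr1 at 0.01. Depth did not limit these genes, the lowest of which had 477 expected counts in a library.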
